A study of Mus musculus with 2 samples.

Results

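Imprinted genes are described here in mouse hematopoietic stem cells, the self-renewing cells of the marrow from which all blood lineages arise. The genes were taken from a list of 44 names and matched by symbol to the Ensembl identifiers of the deposited tables. A row was found for 43 of them among 43346 mouse gene rows, and Peg13, an intronic non-coding RNA of Trappc9, had no row and is named only. They were ordered by imprinted domain, of which there are 17. Total RNA was sequenced from a single group of 2 libraries, each made from 100 cells of adult male C57BL/6J mice aged 5 to 6 weeks, with no treatment or second condition named. The labels call them biological replicates 1 and 2, under 1 donor identifier and separate biosample identifiers. The sources used here do not say whether the pools were drawn from separate animals, so part of their spread may be technical.

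Genomic imprinting restricts expression of a gene to the copy inherited from the mother or to the copy inherited from the father. The choice is set by DNA methylation of an imprinting control region in the germ line, and a control region often acts on several neighbouring genes, in part through a long non-coding RNA that silences them. Imprinted genes are best known for control of fetal and placental growth, and several of them have been tied to the quiescence of blood stem cells, among them the genes of the H19/Igf2 and Dlk1-Meg3 domains and Cdkn1c. Total RNA from an inbred strain carries no sequence difference between the parental copies, so the values below are the sum of both copies and say nothing of parental origin.

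Expected counts on mouse gene rows summed to 48307541 in replicate 1 and 28945004 in replicate 2. TPM is the unit of level, a measure that takes a gene's length into account and is scaled to the same total in each library. Detection of a gene required at least 1 TPM and an expected count of 10. Of 10 stem cell marker genes, 9 were detected in both libraries, Slamf1 being the exception at 2.87 and 0.36 TPM. The list summed to 577 and 426 TPM, and Mecom was also over 2-fold higher in replicate 1, at 52.02 and 17.94 TPM. Procr (3.29 and 6.48 TPM), Gata2 (12.77 and 18.95 TPM) and Kit (107.53 and 116.99 TPM) were higher in replicate 2. The other markers of this list were higher in replicate 1. The libraries stood apart in markers of other marrow cells. Those of mature neutrophils summed to 0.5 TPM in replicate 1 and 314.86 TPM in replicate 2, with Ngp at 0.09 and 139.5 TPM, and those of B cells to 9.08 and 34.32 TPM. Of the T and NK cell list, 4 genes were over 2-fold higher in replicate 1: Cd3e (3.56 and 0 TPM), Cd3g (3.18 and 0 TPM), Klrb1c (7.24 and 0.43 TPM) and Ncr1 (7.04 and 1.74 TPM). With Nkg7 at 36.18 and 55.76 TPM, the list summed to 57.2 and 57.93 TPM. Erythroid markers summed to 708 and 710 TPM, megakaryocyte markers to 77.1 and 84.1 TPM and endothelial markers to 3.82 and 7.12 TPM. Of 10 stromal and mesenchymal markers, 7 had no count in either library (Col1a1, Col3a1, Pdgfra, Lepr, Cxcl12, Dcn and Lum), and the list summed to 4.52 and 6.13 TPM. In a pool, fewer cells of a type and less RNA per cell cannot be told apart.

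The promoters below are shown because the transcript results turn on them: the Gnas and Grb10 genes each have several starts, and Mcts2 and Zrsr1 are retrogenes that lie inside other genes. Each is the stretch of 250 bases before a RefSeq start of build GRCm38.p6, the build of the deposited tables (mm10), read 5′ to 3′ in the direction of the gene. Capitals mark CG pairs, the sites at which mammalian DNA is methylated. The Gnas windows lie on the plus strand at chr2:174284070-174284319 (start of the Nesp transcripts), chr2:174327518-174327767 (exon 1A) and chr2:174329756-174330005 (the Gs-alpha protein).
Gnas Nesp start: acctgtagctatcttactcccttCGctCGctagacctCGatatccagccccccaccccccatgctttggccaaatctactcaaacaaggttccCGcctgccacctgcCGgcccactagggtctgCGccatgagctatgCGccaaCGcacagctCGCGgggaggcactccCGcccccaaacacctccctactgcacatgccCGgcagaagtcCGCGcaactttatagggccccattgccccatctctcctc
Gnas exon 1A start: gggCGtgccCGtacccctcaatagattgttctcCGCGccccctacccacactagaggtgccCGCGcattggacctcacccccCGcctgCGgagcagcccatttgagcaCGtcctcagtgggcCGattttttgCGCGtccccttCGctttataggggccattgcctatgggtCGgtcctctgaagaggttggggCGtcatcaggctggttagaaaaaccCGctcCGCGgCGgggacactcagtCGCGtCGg
Gnas Gs-alpha start: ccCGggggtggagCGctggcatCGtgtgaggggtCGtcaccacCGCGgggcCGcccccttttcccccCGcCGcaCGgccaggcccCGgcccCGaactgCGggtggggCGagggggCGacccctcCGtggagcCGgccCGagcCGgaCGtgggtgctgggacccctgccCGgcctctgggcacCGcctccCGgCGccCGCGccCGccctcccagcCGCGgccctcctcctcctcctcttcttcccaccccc

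The Gnas windows hold 14, 22 and 29 CG pairs in that order, against a median of 6 over 32851 windows of the same length. The Grb10 windows lie on the minus strand at chr11:12037421-12037670, just before the start of transcript Grb10-201, and at chr11:12027972-12028221, which adjoins the start of transcript Grb10-203.
Grb10-201 start: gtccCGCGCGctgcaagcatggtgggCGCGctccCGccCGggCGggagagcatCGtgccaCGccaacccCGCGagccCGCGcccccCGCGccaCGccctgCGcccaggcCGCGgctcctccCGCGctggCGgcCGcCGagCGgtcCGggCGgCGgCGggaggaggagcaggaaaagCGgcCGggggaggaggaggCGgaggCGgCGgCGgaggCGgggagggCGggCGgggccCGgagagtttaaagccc
Grb10-203 start: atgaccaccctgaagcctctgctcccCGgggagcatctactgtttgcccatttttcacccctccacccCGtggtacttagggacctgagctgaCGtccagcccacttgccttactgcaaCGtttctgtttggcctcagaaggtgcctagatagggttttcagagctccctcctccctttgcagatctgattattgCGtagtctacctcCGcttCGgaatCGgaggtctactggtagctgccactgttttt

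The first of these holds 40 CG pairs, a number that 1.31% of all windows reach, and the second holds 8. The Mcts2 window lies on the plus strand at chr2:152686898-152687147, within the H13 gene, and the Zrsr1 window on the plus strand at chr11:22971755-22972004, within the Commd1 gene, which runs the other way.
Mcts2 start: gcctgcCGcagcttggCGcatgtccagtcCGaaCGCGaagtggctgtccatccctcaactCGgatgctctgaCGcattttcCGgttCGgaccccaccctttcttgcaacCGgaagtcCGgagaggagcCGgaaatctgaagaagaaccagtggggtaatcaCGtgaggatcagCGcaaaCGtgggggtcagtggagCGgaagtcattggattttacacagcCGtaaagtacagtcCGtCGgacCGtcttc
Zrsr1 start: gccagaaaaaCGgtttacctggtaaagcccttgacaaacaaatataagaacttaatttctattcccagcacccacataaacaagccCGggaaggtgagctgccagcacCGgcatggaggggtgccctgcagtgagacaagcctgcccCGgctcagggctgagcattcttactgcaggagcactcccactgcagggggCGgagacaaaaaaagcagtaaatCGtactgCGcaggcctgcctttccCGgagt

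Mcts2 holds 20 CG pairs and Zrsr1 holds 8. Windows were found for 34 of the imprinted genes, 50 windows in all, with a median of 10 CG pairs. The letters TGCCGC, the core bound by the imprint-keeping factor Zfp57 when its CG is methylated, were searched on both strands. They stood in 14% of the 50 windows and in 8.68% of all 32851, the Mcts2 window among them, and a match is a description of the letters alone. The Mest windows with these letters overlap almost wholly, so the 14% counts that stretch more than once. Snrpn and Snurf share a window, which is also counted for each among the 50.

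Of the 43 measured genes, 19 were detected in both libraries, or 44.2%. Over all mouse gene rows 24.7% were, over protein coding genes 45.5% and over long non-coding genes 4.78%. Protein coding members made up 17 of the 19, out of 36 measured (47.2%), a share near that of protein coding genes as a whole. The other two were the long non-coding RNAs Kcnq1ot1 and Airn, out of 7 such members. Members detected in a single library were Peg10 in replicate 1 and Meg3 and Nespas in replicate 2. Igf2, Dlk1, Rian and Ndn had counts in replicate 2 but stayed under 1 TPM there. The remaining 17 had no count in either library: H19, Kcnq1, Rtl1, Mirg, Dio3, Ddc, Peg3, Usp29, Zim1, Asb4, Mest, Plagl1, Snrpn, Snurf, Magel2, Nnat and Rasgrf1. Genes without a count made up 39.5% of the members and 41.7% of the protein coding ones, beside 60.9% of all mouse gene rows and 38% of all protein coding genes.

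**Figure D1:**
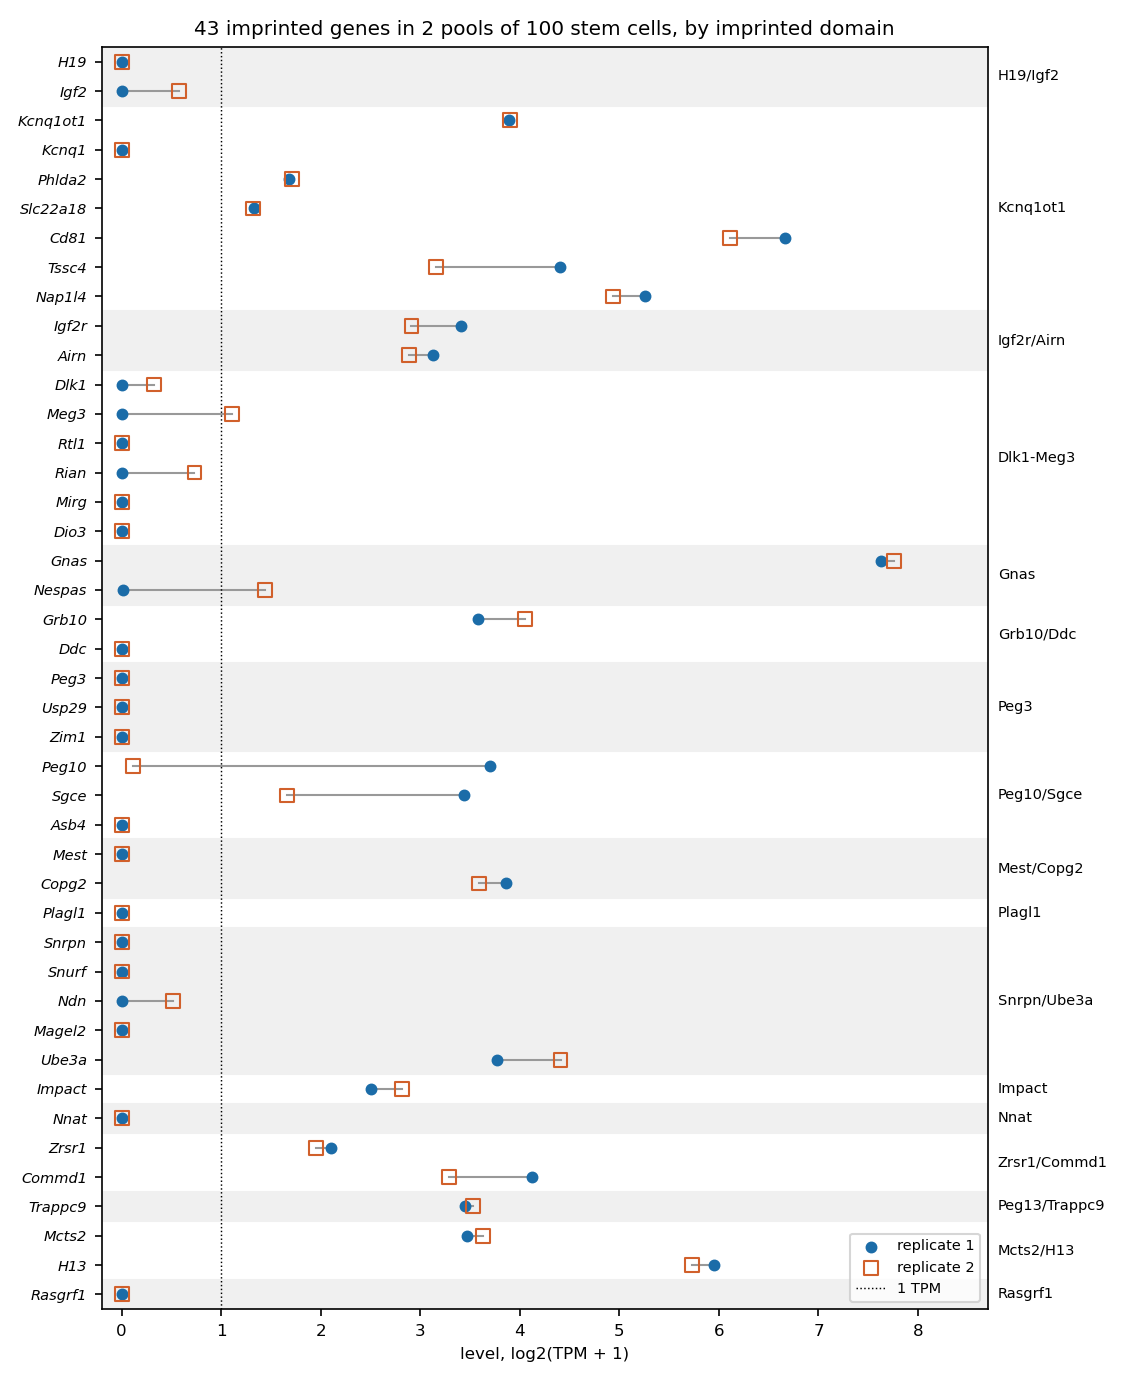
Level of each of the 43 measured imprinted genes on the log2(TPM + 1) scale, grouped by domain, with 1 filled circle for replicate 1 and 1 open square for replicate 2. Gnas, Cd81 and H13 lie furthest right, 17 genes have both symbols at 0, and the widest gaps between the symbols are those of Peg10 and Sgce.

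The detected genes fell in 11 of the 17 domains, and the Peg3, Plagl1, Nnat and Rasgrf1 domains had no count on any measured member. Over all members the median level was 0 and 0.66 TPM in replicates 1 and 2, where protein coding genes had medians of 0.21 and 1.02 TPM. Among members detected in both libraries the medians were 10.93 and 10.53 TPM, beside 13.22 and 11.69 TPM for all genes detected in both. The Gnas domain held 35.6% and 43.7% of the summed TPM of the members, the Kcnq1ot1 domain 31.6% and 24.8%, and the Mcts2/H13 domain 12.8% and 12.7%. Most of the summed TPM of the listed genes thus came from 3 domains in both libraries.

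The Kcnq1ot1 domain on distal chromosome 7 held the most detected members, 6 of 7 in both libraries. Its control region is the promoter of Kcnq1ot1, a long unspliced RNA that runs against Kcnq1 and silences genes around it on the paternal copy. Kcnq1ot1 (chr7:143203458-143296549, minus strand, GENCODE M21) was measured at 13.80 and 13.97 TPM. It is listed as a single entry of 84395 bases and took expected counts of 37304 and 21368, the highest of any member. The 2 libraries differed by 0.02 on the log2 scale. Kcnq1, a potassium channel gene whose introns hold Kcnq1ot1, had no count. By counting error alone, a Kcnq1 count of 0 allows at most 3 counts. The level of Kcnq1ot1 was at least 108.8-fold that limit in replicate 1, and at least 61.7-fold in replicate 2.

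The other detected members of the domain were a low pair and 3 genes of higher level. Phlda2, which restrains placental growth, was at 2.21 and 2.28 TPM, and the neighbouring transporter gene Slc22a18 was at 1.51 and 1.49 TPM. By mean level both were the lowest of the members detected in both libraries. The Slc22a18 values rest on 68 and 14 counts. In replicate 2, 4.53 of them fell on a 357-base transcript that carried 73.8% of the gene's TPM. Cd81, which encodes a tetraspanin of the cell surface, was at 100.67 and 67.96 TPM, and Nap1l4, which encodes a histone chaperone, at 37.23 and 29.54 TPM. Tssc4 was at 20.09 and 7.93 TPM from 605 and 143 counts, 2.53-fold higher in replicate 1. Of the genes between and beyond the members, Tspan32 stood at 50.68 and 37.65 TPM, Osbpl5 at 17.02 and 4.36 TPM, and Cdkn1c, a cell cycle inhibitor known to hold blood stem cells in quiescence, at 5.56 and 1.03 TPM. Tssc4, Cdkn1c and Osbpl5 were each over 2-fold higher in replicate 1, while Kcnq1ot1 and Phlda2 lay within 0.5 on the log2 scale between the libraries. On the far side of the same chromosome end, H19 had no count and Igf2, a fetal growth factor gene, was at 0 and 0.49 TPM from 0 and 10 counts.

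**Figure D2:**
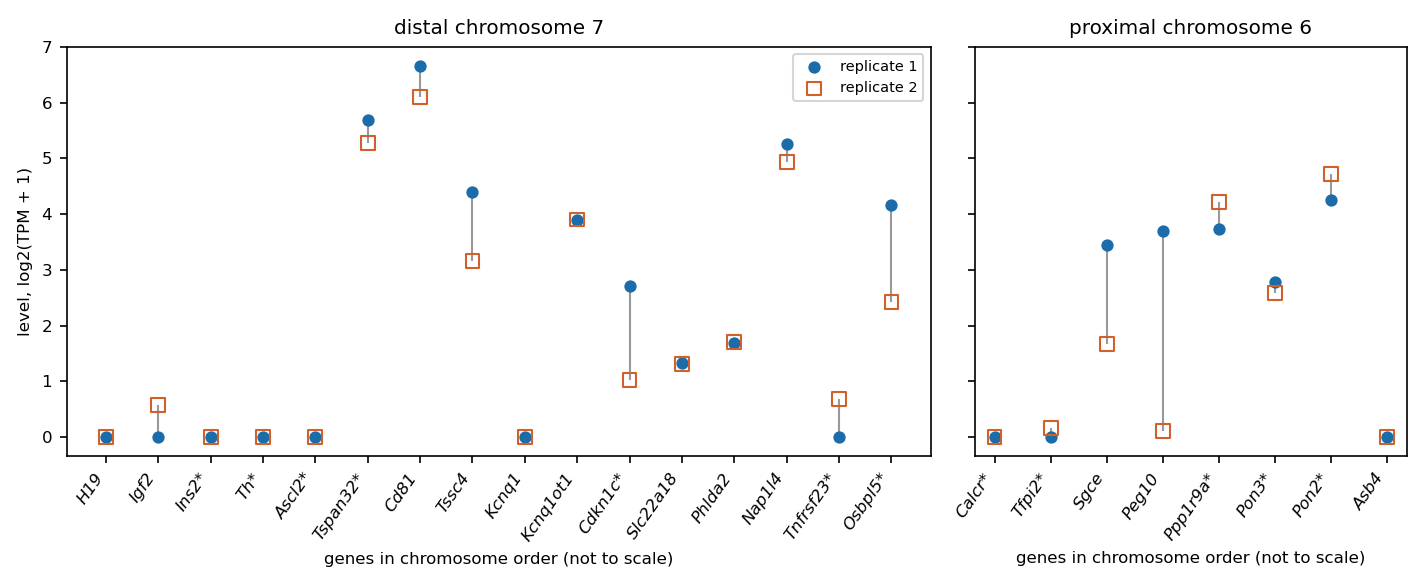
Levels on the log2(TPM + 1) scale of genes of distal chromosome 7 and proximal chromosome 6 in chromosome order, filled circles for replicate 1 and open squares for replicate 2, with an asterisk on imprinted genes outside the 44. On chromosome 7 the symbols for Kcnq1ot1, Slc22a18 and Phlda2 coincide on this TPM scale, and on chromosome 6 Sgce and Peg10 are lower in replicate 2 while Ppp1r9a and Pon2 are not.

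Igf2r and Airn were both detected, at similar levels per length. Igf2r (chr17:12682406-12769664, minus strand) encodes the receptor that takes up IGF2 and carries it to the lysosome, and Airn is the antisense RNA that starts inside it and silences it on the paternal copy. Igf2r was at 9.63 and 6.52 TPM (1604 and 946 counts) and Airn at 7.74 and 6.41 TPM (274 and 110 counts). The log2 ratio of Airn to Igf2r was -0.17 ± 0.20 (SD, n = 2), no further from 0 than its own spread. By expected counts, with no length term, this ratio was -2.83. In replicate 1, Igf2r-203, a processed transcript of 803 bases, took 4.25 TPM of the Igf2r level from 92.83 counts. The full-length Igf2r-201 was at 5.37 and 5.91 TPM. The annotated Airn transcripts are spliced forms, of which Airn-201 carried 56.9% and 53.1% of the signal, so unspliced Airn RNA outside their exons was not counted. The genes overlap over 28354 bases on opposite strands. The sources used here do not say whether counting used strand, so reads of the shared stretch may have been counted for the wrong gene. The same limit holds for Kcnq1ot1 within Kcnq1, Nespas beside Gnas, Mest beside Copg2 and Zrsr1 within Commd1. The deposited posterior SD of the count was 0 for each of these genes but Commd1, as for genes none of whose reads is shared out with another gene.

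Igf2 itself was near 0 while its receptors were expressed. In a list of 13 genes of the insulin-like growth factor pathway, 4 were detected in both libraries, beside 45.5% of all protein coding genes. Igf1r, the signalling receptor for IGF1 and IGF2, was at 42.2 and 27.8 TPM, and Insr, the insulin receptor gene, at 18.0 and 12.6 TPM. Igfbp4, a secreted binding protein gene, was at 58.5 and 51.0 TPM, and Irs2, an adaptor of these receptors, at 7.69 and 6.18 TPM. Igf1, the other ligand gene, was at 0 and 0.09 TPM, and Igfbp7 at 2.22 and 0 TPM. Igf2bp2, which encodes an RNA-binding protein, was at 1.51 and 0.95 TPM. Grb10, an imprinted adaptor that binds the same receptors and dampens their signal, was at 10.93 and 15.63 TPM. Its neighbour Ddc, which encodes an enzyme of dopamine and serotonin synthesis, had no count. Grb10 stood at least 125-fold and 100-fold above the most Ddc that a count of 0 allows by counting error alone.

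The Grb10 signal came mainly from 2 starts. Transcript Grb10-203, whose start adjoins the window with 8 CG pairs printed above, carried 69.2% of it in replicate 1 and 30.7% in replicate 2. Grb10-201, from the window with 40 CG pairs, carried 30.8% and 40.4%. The order of these 2 transcripts was therefore reversed between the libraries. They end at the same base and are 4755 and 5061 bases long, so their split is less sure than the level of the gene. The leading transcript differed between the libraries in 48.3% of all genes with several transcripts detected in both. Grb10-204, a non-coding fragment of 479 bases, carried 0% and 22.3%, from 22.1 counts in replicate 2, and Grb10-205 carried 0% and 6.5%.

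Gnas was the most abundant member, at 197.45 and 215.25 TPM (9902 and 5909 counts). The gene (chr2:174284320-174346744, plus strand) has alternative first exons for the stimulatory G protein subunit Gs-alpha, for its long form XLas, for the secretory protein Nesp and for the non-coding exon 1A transcript, several of them marked by imprints. Of 24 annotated transcripts 12 had signal. Transcripts from the Gs-alpha start carried 92.8% and 86.1% of the gene's TPM. Those of exon 1A carried 3.28% and 8.69%, and by share of counts, with no length term, 7.92% and 8.19%. Most of the exon 1A counts (784.22 and 364.13) fell on Gnas-202, a transcript of 3903 bases annotated as protein coding. Its level was 6.47 and 5.32 TPM, while Gnas-218, of 607 bases, was at 0 and 12.46 TPM. The exon 1A share is therefore not that of non-coding RNA alone. Nesp transcripts carried 0% and 0.427%, and XLas transcripts 0% and 0.0557%, from 11.1 and 7.53 counts in replicate 2. The Gs-alpha start, with the most CG pairs of the 3 printed, thus carried most of the signal, and the Nesp and XLas starts were at or near 0. Within the Gs-alpha group, Gnas-208 carried 49.5% and 22.9% of the gene's TPM, Gnas-206 27.7% and 35.4%, and Gnas-207 9.34% and 26.0%. These share most of their exons, so their split is less sure than that between starts.

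Nespas, the antisense RNA at the Nesp start, was at 0.01 TPM in replicate 1 (1 count) and 1.72 TPM in replicate 2 (47 counts). The counting intervals (exact Poisson, 95%) run from 0.000253 to 0.0557 TPM and from 1.26 to 2.29 TPM. Nespas and Gnas overlap on opposite strands over 11117 bases. Of a list of 16 genes that act with Gs-alpha, 14 were detected in both libraries, beside 45.5% of all protein coding genes. Gnb1 and Gnb2, which encode beta subunits, were at 90.3 and 109 TPM and at 69.0 and 79.8 TPM. Creb1, which encodes a transcription factor at the end of the pathway, was at 64.1 and 29.6 TPM, and Pde4d, which encodes an enzyme that breaks down cyclic AMP, was at 50.4 and 41.6 TPM. Prkar1a, which encodes a regulatory subunit of protein kinase A, was at 34.8 and 41.2 TPM. Gng2 was higher in replicate 1 (19.1 and 8.96 TPM) and Gng5 in replicate 2 (9.55 and 27.3 TPM), both encoding gamma subunits. Gnal, the gene of the other stimulatory alpha subunit, was at 0 and 0.25 TPM.

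**Figure D3:**
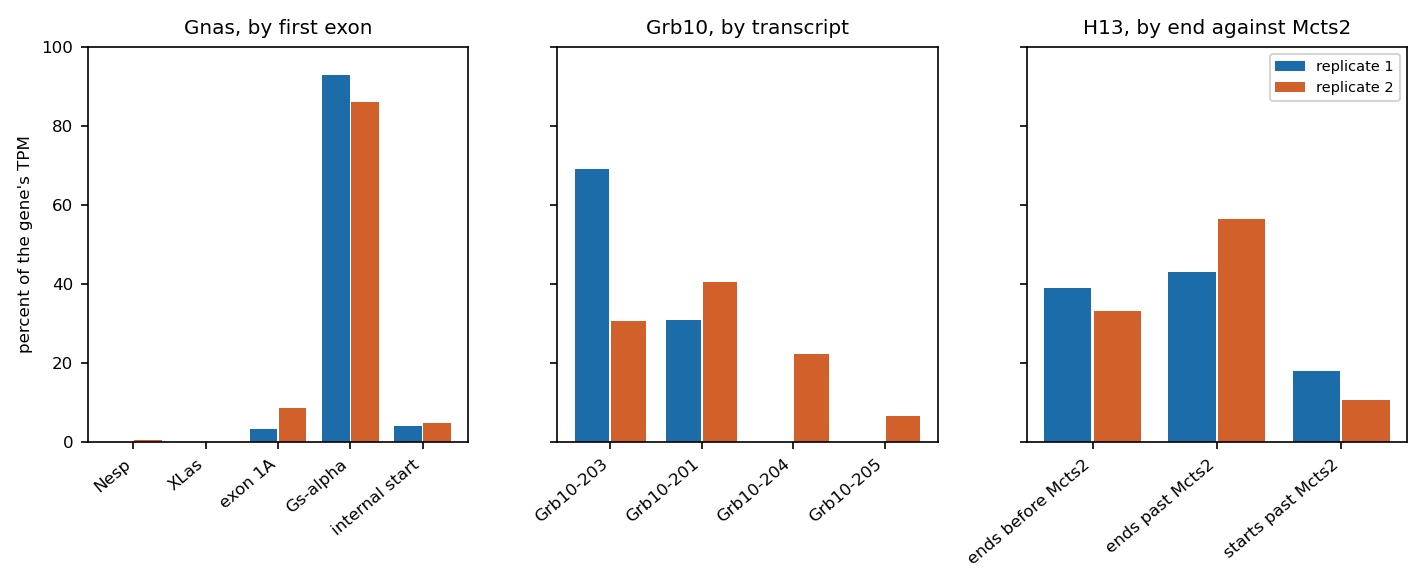
Share of a gene's TPM (percent, axis from 0) carried by groups of transcripts of Gnas by first exon, of Grb10 by transcript and of H13 by where they end against Mcts2, in replicate 1 and replicate 2. The Gs-alpha start holds 92.8% and 86.1% of Gnas, and Grb10-203 is above Grb10-201 in replicate 1 and below it in replicate 2.

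The Dlk1-Meg3 domain on chromosome 12 was at or near 0. Of its 6 members, Dlk1, which encodes a Notch-like surface protein, was at 0 and 0.25 TPM (0 and 5 counts). The non-coding RNA Meg3 was at 0 and 1.15 TPM (0 and 31 counts), with a counting interval of 0.781 to 1.63 TPM in replicate 2, and Rian, the host of a large set of small nucleolar RNAs, at 0 and 0.66 TPM (0 and 11 counts). The retrotransposon-derived gene Rtl1, the microRNA host Mirg and the thyroid hormone deiodinase gene Dio3 had no count. With no count, replicate 1 could hold at most 0.0362 TPM of Meg3 and 0.0728 TPM of Rian. All counts of the domain thus came from a single library.

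The members with counts in replicate 2 and none in replicate 1 were Igf2, Dlk1, Meg3, Rian and Ndn, and no member had the reverse. Ndn, a growth suppressor gene known to be expressed in quiescent blood stem cells, was at 0 and 0.43 TPM (0 and 12 counts). Among all genes at 0.2 to 1.5 TPM with at least 5 counts in replicate 2, 54.4% had no count in replicate 1, while of genes in the same window in replicate 1, 7.23% had none in replicate 2. The direction shown by these 5 genes was thus that of low genes in general in these libraries. The neutrophil and B cell marker sums were also higher in replicate 2 (314.86 against 0.5 TPM and 34.32 against 9.08 TPM), and the part of those cells in these values was not tested.

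Peg10 and Sgce on proximal chromosome 6 were the members that differed most between the libraries on the log2(TPM + 1) scale, by 3.59 and 1.78. With 0.1 added to the TPM in place of 1, Nespas (-4.05) and Meg3 (-3.64) differed more than Sgce (2.13). Peg10 and Sgce start 98 bases apart on opposite strands and share a control region that leaves the paternal copies active. Peg10, a retrotransposon-derived gene needed for the placenta, was at 11.98 TPM in replicate 1 (1129 counts, interval 11.3 to 12.7 TPM) and 0.08 TPM in replicate 2 (9 counts, interval 0.0366 to 0.152 TPM). Sgce, which encodes epsilon-sarcoglycan, a membrane protein, was at 9.86 and 2.17 TPM (347 and 60 counts), 4.54-fold higher in replicate 1. On counts its log2 difference was smaller, 1.26 with TMM factors and 1.57 with DESeq2 size factors. Both genes of the shared start were therefore higher in the same library. Of 2484 genes at 8 to 16 TPM in replicate 1, 0.725% were under 0.2 TPM in replicate 2, as Peg10 was. Their imprinted neighbours did not share the difference, Ppp1r9a being at 12.36 and 17.72 TPM, Pon2 at 18.14 and 25.47 TPM and Pon3 at 5.90 and 5.03 TPM. Asb4, further along, and the neighbour Calcr had no count, and Tfpi2 was at 0 and 0.12 TPM. The log2 ratio of Peg10 to Sgce was 0.28 in replicate 1 and -3.66 in replicate 2, so that the gap was wider for Peg10 than for Sgce. With 1 library on each side, the library and any other source of the difference cannot be told apart.

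In 2 further domains a gene with no count lay beside a detected partner. Mest, a paternally expressed gene of growth and maternal behaviour, had no count, while Copg2, which encodes a coat protein of vesicles and overlaps the end of Mest over 912 bases, was at 13.55 and 11.07 TPM, at least 92.4-fold and 42.2-fold above the most Mest allowed. In the Prader-Willi and Angelman region, Snrpn, Snurf and Magel2 had no count. Ube3a, the ubiquitin ligase gene that is imprinted in neurons and expressed from both copies elsewhere, was at 12.65 and 20.24 TPM (2019 and 1824 counts), at least 255-fold and 229-fold above the most Snrpn allowed. Impact, a regulator of the integrated stress response, had no listed partner and was at 4.68 and 6.06 TPM. For 16 of the 17 members with no count, the most that 3 counts allow ranged from 0.0150 to 0.147 TPM in replicate 1 and from 0.0265 to 0.262 TPM in replicate 2. For Snurf, a short transcript, it was 0.978 and 1.86 TPM, so a level near 1 TPM was not detectable. These limits and the intervals cover counting error only, since reads amplified without molecular identifiers are not independent molecules.

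The imprinted retrogenes Mcts2 and Zrsr1 were both expressed below the genes that hold them, per length. Mcts2, an intronless copy of the X-linked translation factor gene Mcts1, was at 10.08 and 11.41 TPM (257 and 163 counts), and its host H13, which encodes a signal peptide peptidase, at 60.94 and 51.93 TPM. The log2 ratio of Mcts2 to H13 was -2.38 ± 0.29 (SD, n = 2). Where Mcts2 is active, H13 is known to end early, before it, and where Mcts2 is methylated H13 runs through. H13 transcripts that end before Mcts2 carried 38.9% and 33.1% of the gene's TPM and those that end past it 43.1% and 56.4%. H13-205, which starts past Mcts2, carried 17.9% and 10.5%. Of the early-ending transcripts, H13-206, annotated as a retained intron, carried 21.8% and 19.7%. The protein coding H13-203 carried 17.1% and 13.4%. Transcripts that end before Mcts2 and those that end past it thus both had signal in each library, and early ending itself was not tested. The parent Mcts1 was at 27.96 and 10.95 TPM (433 and 104 counts), so that the retrogene lay below its parent in replicate 1 (log2 ratio -1.46) and level with it in replicate 2 (0.06).

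Zrsr1, an intronless copy of the X-linked splicing factor gene Zrsr2, was at 3.29 and 2.87 TPM, and its host Commd1, a copper and NF-kappaB regulator, at 16.41 and 8.75 TPM. The log2 ratio of Zrsr1 to Commd1 was -1.93 ± 0.50 (SD, n = 2). By expected counts, with no length term, Zrsr1 was the higher of the pair (334 against 246 and 164 against 96.24 counts), a log2 ratio of 0.60. The parent Zrsr2 was at 28.18 and 18.27 TPM, and the log2 ratio of Zrsr1 to it was -2.84 ± 0.31 (SD, n = 2). The longest reading frames of Mcts2 and Mcts1 are identical at 85.2% of 546 bases, with a longest identical run of 29 bases. Those of Zrsr1 and Zrsr2 are identical at 79.6% of 1282 aligned bases, with a longest run of 37. The deposited posterior SD of the count was 0 for all 4 genes, as for genes none of whose reads is shared out with another gene, and Commd1 was the member with a value above 0. Trappc9, a vesicle trafficking gene whose intron holds Peg13, was at 9.91 and 10.53 TPM.

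**Figure D4:**
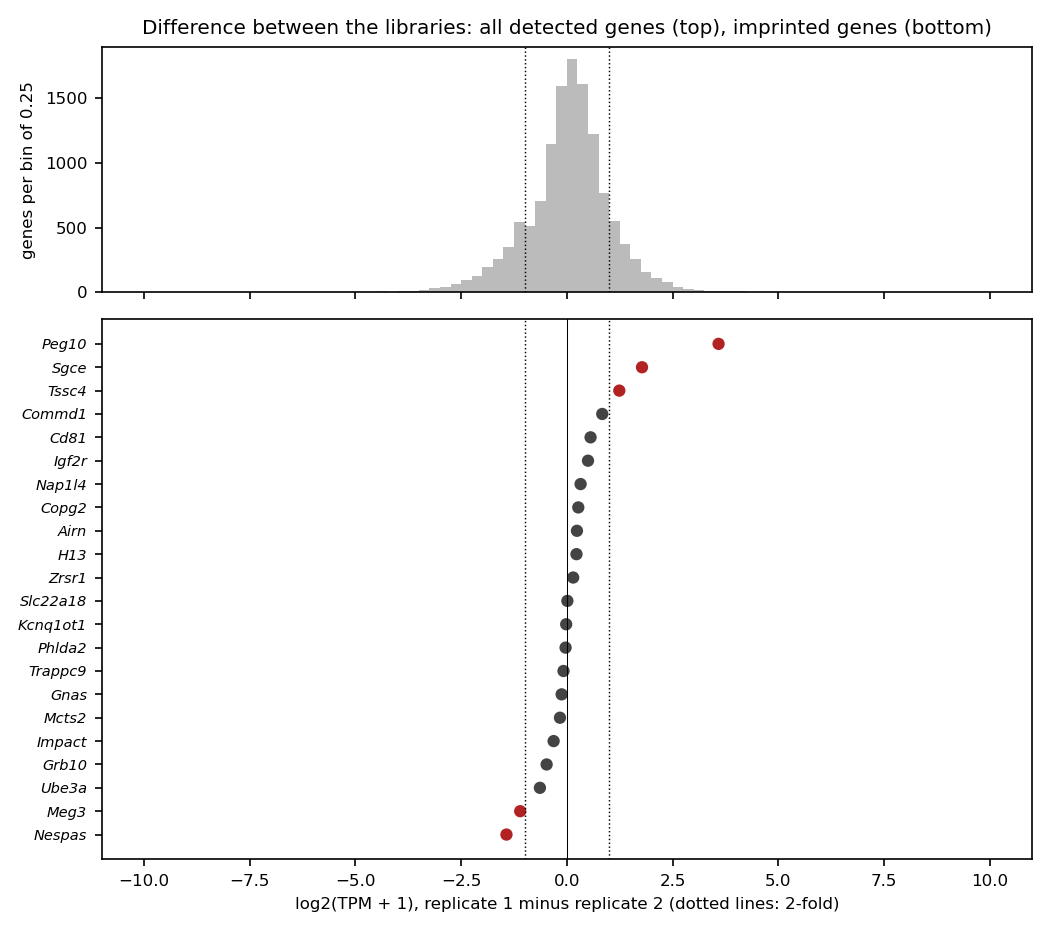
Difference between the libraries, log2(TPM + 1) of replicate 1 minus replicate 2, for all genes detected in either library (top, genes per bin) and for the 22 imprinted genes detected in either (bottom, red beyond 2-fold). Peg10, Sgce and Tssc4 lie beyond the right dotted line and Meg3 and Nespas beyond the left one, and the other points lie between them.

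Of the 22 members detected in either library, 5 were over 2-fold apart on the log2(TPM + 1) scale, or 22.7%, beside 27.1% of 12862 genes. Peg10, Sgce and Tssc4 were higher in replicate 1 (13.1% of all genes) and Meg3 and Nespas in replicate 2 (14% of all genes). Imprinted genes as a list therefore differed between the libraries about as often as genes in general. Of the 19 members detected in both, 14 lay within 0.5 on the log2 scale between the libraries. Igf2r (0.499) and Grb10 (-0.479) were near that limit. The share of all genes detected in both that lay within it was 56.4%. The median absolute difference of these members was 0.27, against 0.43 for all genes detected in both. The closest were Slc22a18, Kcnq1ot1, Phlda2, Trappc9 and Gnas, with differences of 0.01, -0.02, -0.03, -0.08 and -0.12. For Slc22a18 this holds on the TPM scale alone, since on counts its difference was 0.61 with TMM factors and 1.29, past 2-fold, with DESeq2 size factors. Ranked by mean level, Gnas (206 ± 12.6 TPM), Cd81 (84.3 ± 23.1 TPM), H13 (56.4 ± 6.37 TPM) and Nap1l4 (33.4 ± 5.44 TPM) came first (SD, n = 2). Ube3a (16.4 ± 5.37 TPM), Tssc4 (14.01 ± 8.60 TPM), Kcnq1ot1 (13.9 ± 0.120 TPM) and Grb10 (13.3 ± 3.32 TPM) followed and did not differ from each other beyond their spread.

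Of the 19 detected members, 12 have several annotated transcripts, and the same transcript led in both libraries for 5: Airn, Copg2, H13, Igf2r and Tssc4. Igf2r-201, the full-length receptor transcript, carried 55.8% and 90.6%, Copg2-201 73.3% and 62.9%, Tssc4-204 54.2% and 57.9%, and H13-202 35.2% and 43.9%. For Cd81, Commd1, Gnas, Grb10, Sgce, Slc22a18 and Trappc9 the leading transcript differed, 7 of the 12 genes, beside 48.3% of the 7571 genes with several transcripts that were detected in both libraries. Cd81-201 carried 40.3% and 68.0%, Trappc9-202 9.71% and 59.4%, Sgce-210 56.6% and 10.8%, Commd1-202 35.8% and 45.0% and Slc22a18-201 100% and 15.6%.

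Most genes of a list of imprinting regulators were detected. The list is not only of factors that keep imprints, and Tet1, Tet2 and Tet3 are among them. Of its 30 genes, 26 were detected in both libraries, beside 45.5% of all protein coding genes. Trim28, the corepressor that KRAB zinc finger proteins bring to methylated control regions, was at 226 and 265 TPM. Uhrf1, which brings the maintenance methyltransferase to newly copied DNA, was at 94.4 and 87.2 TPM, and Dnmt1, that enzyme, at 77.3 and 81.9 TPM. Smchd1, a chromatin protein that silences imprinted clusters and the inactive X, was at 84.3 and 66.8 TPM, and Ezh2, the Polycomb methyltransferase gene, at 48.1 and 102 TPM. Hells, a remodeller that helps DNA methylation, was at 87.6 and 41.5 TPM. Ezh2 was over 2-fold higher in replicate 2 and Hells in replicate 1. Zfp57, a zinc finger gene of the imprint-keeping complex, was at 0 and 1.97 TPM (0 and 43 counts), while Zfp445, which has the same role, was at 8.76 and 16.6 TPM. The germ line and oocyte factors Dnmt3l (0 and 0.63 TPM), Dppa3 (0 in both) and Ctcfl (0.02 and 0 TPM) were not detected.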

How the data were processed

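RNA of 2 libraries of mouse hematopoietic stem cells was sequenced, and gene and transcript tables were analysed. The authors deposited expected counts, an estimate of the reads from each gene and transcript in which shared reads are split. TPM and FPKM values were deposited by the authors in the same tables, and FPKM was used for an alternative. The percent of a gene's TPM carried by each transcript was deposited in the transcript tables. Column names are those RSEM writes, per the file headers, and the build mm10 and annotation GENCODE M4 are named in the text deposited with the samples. The sources used here name neither the aligner nor whether strand was used in counting.

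Of 43346 mouse gene rows, 42462 matched a symbol. Positions are GENCODE M21 (GRCm38), promoters RefSeq (GRCm38.p6). A single group of 2 libraries allows no test between groups, so no p-value is given. Detection needed 1 TPM and an expected count of 10. Differences between libraries use log2(TPM + 1), and at low levels this makes them smaller. Within-library ratios use a pseudocount of 0.1 TPM, and against a gene at 0 the fold is over 3 counts. Intervals are exact Poisson, 95%.

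The members and lists were chosen with earlier results of these data known. All members are named, and of the lists of other imprinted genes, regulators, growth factor and Gs-alpha pathways the 5 genes of highest mean TPM and those over 2-fold apart. The rule also covered the cell type marker lists, which are given mainly by their sums, with few of their genes named. Also named by that rule are the leading transcripts, Gnas and Grb10 transcripts with a mean share of at least 5%, and the retrogene parents. Other names, such as Zfp445, Igf1, Gnal, Slc22a3 and Grb10-205, were chosen after their values were seen. Alternatives were other thresholds, pseudocounts, units and scalings, among them edgeR 4.0.16 TMM factors and DESeq2 1.42.0 size factors on expected counts rounded to whole numbers (R 4.3.3), and each library alone. The difference step was run on simulated data with changes set in well-expressed genes alone, so that run does not cover low genes. Other steps ran in Python 3.11.15 with pandas 2.3.3, numpy 2.4.6, scipy 1.17.1, Biopython 1.88 and matplotlib 3.10.9.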

Additional observations from a re-analysis of the deposited data

How the results depend on the processing

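The counts of imprinted genes, other imprinted genes and regulators detected in both libraries stayed within 1.5 times their reported values under every threshold, unit and scaling tried (18 to 19, 18 to 23 and 26), and with each library alone (20 to 21, 22 and 26 to 27). The number over 2-fold apart was 5, fell to 2 at a 3-fold limit (Peg10 and Sgce), and ran from 4 to 6 under the other settings. Meg3 moved to a difference of -0.99 under 1 of 6 scalings, and Peg10, Sgce, Tssc4 and Nespas stayed beyond 2-fold under all 6. The median level of the members, 0.33 TPM as the mean of the libraries, was 1.62 with the deposited posterior mean TPM, which gives genes without counts a value above 0, and 9.42 over members detected in either library. With each library alone it was 0 to 0.66. The number of genes whose leading transcript carried over 50% in both libraries was 4, and 6 to 7 with each library alone. Of 12 pair ratios, 8 had the first gene lower in both libraries, 7 to 9 under the alternatives and 9 with each library alone. No paired analysis was possible because there is a single group. Zrsr1 over Commd1 turned from -1.93 to 0.60 when expected counts replaced TPM. Other scalings moved the median difference of all genes from 0.09 to as low as -0.06 on the log2 scale, and the genes over 2-fold higher in replicates 1 and 2, among those with a symbol, from 1657 and 1770 to 1327 and 2048 with TPM rescaled to nuclear protein coding genes and 1506 and 2204 with DESeq2 size factors. Slc22a18 joined the genes over 2-fold apart with DESeq2 size factors. Replicate 1 has the deeper library, and limits for genes at 0 in replicate 2 are higher for that reason.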

Other observations

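A further 42 imprinted genes outside the list were measured, and 22 of them were detected in both libraries, while 14 had no count in either. Of all protein coding genes, 45.5% were detected in both and 38% had no count in either. The highest by mean level were Tspan32 (50.68 and 37.65 TPM), Ago2, which encodes an Argonaute protein of RNA silencing (43.6 and 40.9 TPM), Gatm, an enzyme of creatine synthesis (34.5 and 43.3 TPM), Ampd3, an AMP deaminase (31.4 and 30.3 TPM), and Pon2 (18.14 and 25.47 TPM). Of these genes, 4 were over 2-fold higher in replicate 1: Cdkn1c, Osbpl5, Atp10a (15.8 and 6.13 TPM) and Blcap (15.7 and 5.83 TPM). Herc3 (1.21 and 3.71 TPM), Chrac1 (6.25 and 14.7 TPM) and Htr2a (1.01 and 4.09 TPM) were over 2-fold higher in replicate 2. Slc22a3, an organic cation transporter gene beside Igf2r, was at 11.6 and 10.4 TPM, and its neighbour Slc22a2 had no count. Dcn stands on this list and among the stromal markers and had no count.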
